A study of Sus scrofa with 6 samples.

Results

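Alpha-arrestin, immediate early and stress genes of pig chromosome 2 were followed in whole embryos at embryonic day 21, 10 genes in all: the alpha-arrestins ARRDC3 and ARRDC2, the immediate early genes EGR1, JUNB, JUND, IER2 and KLF2, and the stress genes GADD45B, DNAJB1 and CIRBP. They were chosen by name from 30139 genes listed in the deposited tables, all 10 were found on chromosome 2 of Sscrofa11.1, and all 10 passed the expression filter, which 1652 genes passed. ARRDC3 headed the choice because its level differed between parthenogenetic and control embryos, and the other genes were added to ask whether that difference went together with a response to stress or handling. The contrast between the groups therefore helped to choose these genes, so their own differences are described without a p-value. How many of them passed a threshold is counted beside the share of all genes that did, and nothing is drawn from it.

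The study compared 3 parthenogenetic embryos (PA) with 3 biparental control embryos (CN), all labelled Landrace x Yorkshire x Duroc. PA embryos developed from oocytes that were matured in vitro, activated by electric pulses and transferred to the oviducts of surrogate gilts, so both of their genomes are maternal. CN embryos were untreated and, by the study's methods, came from gilts mated naturally. In vitro maturation, activation and transfer belong to PA alone, so their effects and those of the missing paternal genome cannot be told apart here. By the study's methods each group came from fewer gilts than it has embryos, so some embryos of a group shared a gilt. The labels do not say which, and p-values measure only the spread between these samples. The tables hold almost nothing but chromosome 2, with 99.6% to 99.7% of 3100284 to 3573406 estimated counts per embryo, so partner genes on other chromosomes could not be followed.

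Alpha-arrestins are adaptor proteins that bring ubiquitin ligases of the NEDD4 family to receptors and transporters at the cell membrane. Immediate early genes are switched on within minutes of a growth factor, shear or stress signal, without new protein synthesis, and most encode transcription factors: EGR1 and KLF2 are zinc finger proteins, and JUNB and JUND are subunits of AP-1. Handling and dissection of tissue are well known to induce them. GADD45B takes part in growth arrest and stress kinase signalling, DNAJB1 is the heat-inducible HSP40 co-chaperone of HSP70, and CIRBP is an RNA-binding protein induced by mild cold.

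The sequences just upstream of the genes that differed most between groups are shown first, because heat shock and serum or cAMP signals act on such genes through short motifs near the start site. Each sequence holds the 250 bases before the outermost annotated start of the gene in Sscrofa11.1, read 5′ to 3′ on the strand of the gene, and excludes the transcript itself. ARRDC3 is taken from chr2:98444836-98445085 (minus strand), GADD45B from chr2:76111459-76111708 (minus strand), KLF2 from chr2:61273038-61273287 (minus strand) and DNAJB1 from chr2:64761422-64761671 (plus strand). Capitals mark matches, on either strand, to any of the motifs searched, which were the heat shock element in both phases (GAANNTTC and TTCNNGAA), the cAMP response element (TGACGTCA), the AP-1 site (TGANTCA), the CArG box bound by serum response factor, the E-box (CACGTG), the CCAAT box (CCAAT), the GC box (GGGCGG) and the TATA box (TATAAA). Neighbouring GC boxes may overlap.
ARRDC3: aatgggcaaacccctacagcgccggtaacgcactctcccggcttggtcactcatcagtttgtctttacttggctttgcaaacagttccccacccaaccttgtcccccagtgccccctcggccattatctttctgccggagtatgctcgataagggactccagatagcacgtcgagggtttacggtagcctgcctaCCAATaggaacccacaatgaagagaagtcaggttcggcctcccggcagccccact
GADD45B: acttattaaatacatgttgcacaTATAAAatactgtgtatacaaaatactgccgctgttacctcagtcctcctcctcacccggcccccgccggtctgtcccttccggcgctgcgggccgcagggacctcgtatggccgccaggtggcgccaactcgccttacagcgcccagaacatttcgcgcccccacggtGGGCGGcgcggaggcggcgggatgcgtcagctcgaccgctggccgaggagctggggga
KLF2: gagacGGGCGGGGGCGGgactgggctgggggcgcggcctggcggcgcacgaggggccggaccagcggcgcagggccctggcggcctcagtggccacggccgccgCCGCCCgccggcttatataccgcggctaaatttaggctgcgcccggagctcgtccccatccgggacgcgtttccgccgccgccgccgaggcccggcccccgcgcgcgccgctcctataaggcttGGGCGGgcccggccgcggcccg
DNAJB1: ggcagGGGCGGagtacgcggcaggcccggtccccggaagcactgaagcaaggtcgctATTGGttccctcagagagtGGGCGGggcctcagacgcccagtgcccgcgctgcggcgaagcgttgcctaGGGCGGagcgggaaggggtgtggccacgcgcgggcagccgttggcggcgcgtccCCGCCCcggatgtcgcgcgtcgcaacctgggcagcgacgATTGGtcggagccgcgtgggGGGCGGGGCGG

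The ARRDC3 window held 1 CCAAT box, from 55 to 51 bases before the annotated start, and no GC box, while the other 9 genes each held at least 1 GC box. That ARRDC3 start belongs to variant X4. Variant X1, which carried most of the ARRDC3 counts, starts at 98444710, and the bases between it and the window were not searched. A GC box was present in 53.9% of the windows of 1447 protein-coding genes on chromosome 2 that passed the expression filter, and a CCAAT box in 33.3% of them. Neither phase of the heat shock element was found in the window of any of the 10 genes, DNAJB1 included, against 5.8% and 5.3% of the 1447 windows. A CArG box was found in IER2 alone among the 10, as CCTTATATGG from 209 to 200 bases before the start, and in 1.0% of the 1447. A cAMP response element was found in JUND alone, from 188 to 181 bases before the start, and in 2.3% of the 1447. These matches describe letters in a fixed window upstream of annotated starts, and elements further away or inside the gene were not searched.

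ARRDC3 was the member that differed most between PA and CN. It is a minus-strand gene (chromosome 2, 98430451 to 98444835). Normalized CPM, that is estimated counts scaled by TMM factors and transcript length to a common library size, measured 734 in CN1, 1173 in CN2, 1027 in CN3, 2196 in PA1, 2779 in PA2 and 2401 in PA3. Every PA embryo was above every CN embryo, and the lowest PA value was well clear of the highest CN value. The means were 2458 ± 296 in PA and 978 ± 224 in CN (SD, n = 3), a log2 fold change of 1.33 (standard error 0.17), or 2.51-fold.

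Of the 10 genes, 1, ARRDC3, met both criteria of the study's methods, which asked for a log2 difference of more than 1 in size at an adjusted p-value under 0.05. Over all 1652 genes 2.91% met them, and 0.121% met them in the direction of higher expression in PA, that is 2 genes. This number was 6 without PA3, 3 without CN1, 1 without CN2 or CN3, 4 with DESeq2 and 7 without the expression filter. With all embryos, the only other one was LOC100737875, an uncharacterized gene with 39.3 CPM in CN and 87.1 CPM in PA. By log2 fold change ARRDC3 ranked 5 of 1652 from the top. The 4 genes above it, LEAP2, GLYATL2, GDF15 and LOC100525452, did not pass, with adjusted p-values of 0.151, 0.276, 0.114 and 0.183, and were expressed at 93.8 CPM or less in PA. At an adjusted p-value below 0.05 with any fold change, 4 of the 10 genes passed, ARRDC3 and GADD45B higher in PA and KLF2 and DNAJB1 lower, against 6.54% of all genes. The same 4 were the members without overlap between groups in normalized CPM, against 28.3% of all genes. GADD45B left the count of 4 when any of CN2, CN3, PA1, PA2 or PA3 was left out, and KLF2 left it without CN2 or CN3. Since the contrast entered the choice of the genes, these counts are a description.

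**Figure D1:**
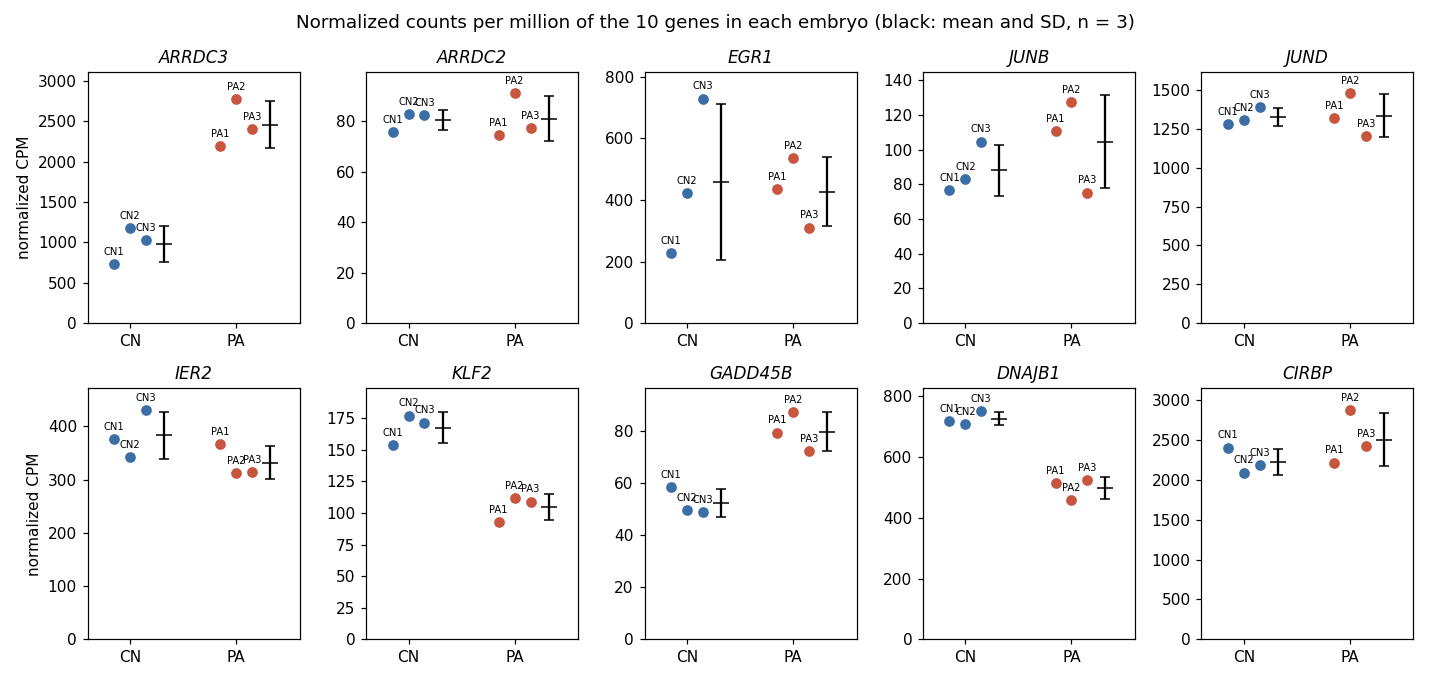
Normalized CPM of the 10 genes in each of the 3 CN (blue) and 3 PA (red) embryos, with y axes from 0 and the mean and SD of each group in black. ARRDC3 and GADD45B were higher in every PA embryo, KLF2 and DNAJB1 were lower in every PA embryo, and the groups of the other 6 genes overlapped.

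Per transcript length, ARRDC3 stood at 279, 527 and 439 TPM in CN1 to CN3 and at 802, 1108 and 1043 TPM in PA1 to PA3. TPM here is relative almost entirely to chromosome 2. Of ARRDC3, 4 transcripts are annotated, which differ in the length of the first exon and in splicing. Variant X1 (XM_003123783.6, 8 exons, first exon from 98444152 to 98444710) carried most of the gene in every embryo, with 61.2%, 70.3% and 74.4% of the estimated counts in CN1, CN2 and CN3 and 82.1%, 81.7% and 75.3% in PA1, PA2 and PA3. Its level was 285 ± 105 TPM in CN and 777 ± 121 TPM in PA.

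Variant X4 (XM_021084529.1), which has the outermost start, was at 29.8 ± 15.8 TPM in CN and 86.9 ± 10.9 TPM in PA (SD, n = 3). X1 and X4 were both higher in every PA embryo than in every CN embryo. The non-coding variant X2 (XR_001307093.2) was at 39.8, 67.0 and 69.6 TPM in CN and 66.9, 85.0 and 108 TPM in PA, so the groups overlapped. Variant X3 (XM_021084528.1) was listed at 0 in CN3 and PA1 and at 44.1 to 63.7 TPM in the other embryos, without order between the groups. The 4 share most of their exons, and the division of reads among them is an estimate whose error was not analysed here.

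ARRDC2, another alpha-arrestin on chromosome 2 (59771104 to 59778500, minus strand), was expressed at a small part of the level of ARRDC3. Its normalized CPM was 75.7, 82.7 and 82.6 in CN and 74.5, 91.2 and 77.4 in PA. The groups overlapped, with a log2 fold change of 0.01 (standard error 0.13). In TPM ARRDC2 was at 52.6 ± 6.87 in CN and 50.5 ± 7.34 in PA (SD, n = 3), beside 415 ± 126 and 985 ± 161 for ARRDC3. ARRDC5, also on chromosome 2, had 1 count in PA1 and 0 in the other embryos, and was not tested.

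The 2 annotated transcripts of ARRDC2 did not keep the same proportions. Variant X2 (XM_003123504.4), whose first exon runs from 59777897 to 59778500, held 40.0%, 51.1% and 38.3% of ARRDC2 TPM in CN1, CN2 and CN3 and 20.3%, 18.5% and 10.1% in PA1, PA2 and PA3. The PA shares all lay under the CN shares. Its level was 22.9 ± 6.03 TPM in CN and 8.12 ± 2.63 TPM in PA (SD, n = 3). Variant X1 (XM_003123503.4), whose first exon spans only 59777897 to 59777955, was at 29.7 ± 3.70 TPM in CN and 42.4 ± 7.46 TPM in PA, where PA1, at 33.8 TPM, lay just below CN3, at 33.9 TPM. X2 rests on few reads, with 95.3, 135 and 105 estimated counts in CN1 to CN3 but 48.8, 55.4 and 27.2 in PA1 to PA3. The transcripts share most of their bases. The shift rests on reads that Salmon could assign to the longer first exon of X2, or to an exon and splice sites of X1 alone. It was not tested.

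**Figure D2:**
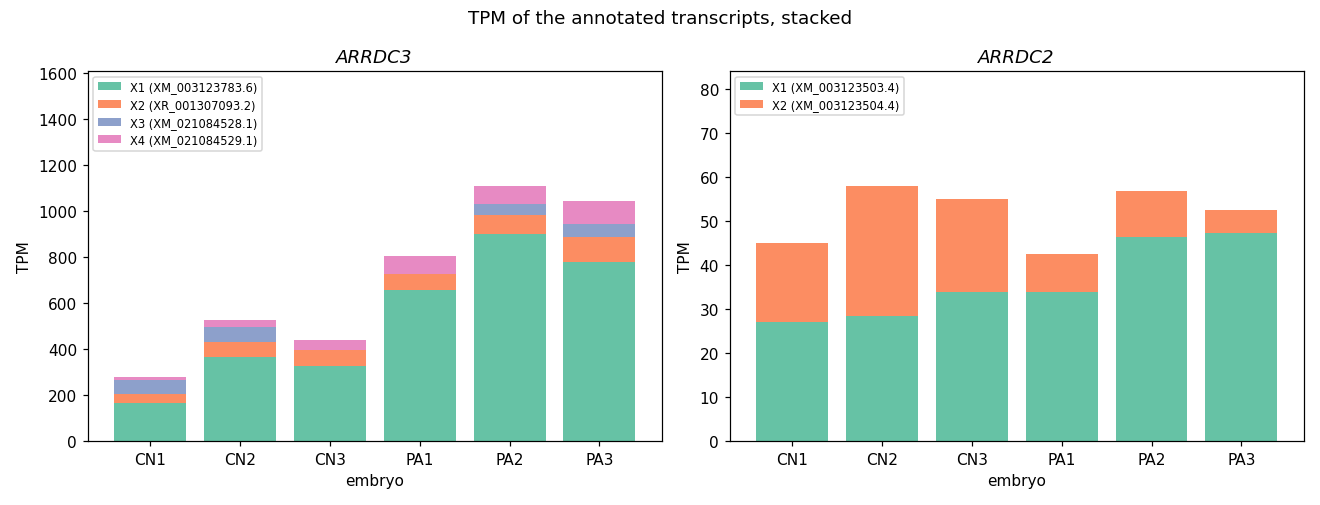
TPM of each annotated transcript of ARRDC3 (left) and ARRDC2 (right), stacked, for each embryo (x axis). The ARRDC3 bars of the PA embryos are taller mainly through variant X1, and the ARRDC2 bars of PA and CN are of similar height with a smaller part from variant X2 in PA.

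Among the other tested genes tied to alpha-arrestins were INSR, the insulin receptor, NR3C1, the glucocorticoid receptor, and TSG101, of the ESCRT machinery that sorts ubiquitinated receptors. None of these 3 passed an adjusted p-value of 0.05 in edgeR. An unadjusted p-value below 0.05 was found for 21.2% of all genes and for 1 of these 3. That one was NR3C1, with a log2 fold change of 0.31 (standard error 0.11; edgeR, adjusted p = 0.126) and 108, 143 and 143 TPM in CN against 125, 159 and 184 TPM in PA. INSR (0.13, adjusted p = 0.697) and TSG101 (0.01, adjusted p = 0.951) overlapped between the groups.

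Likeness to ARRDC3 was measured across all 6 embryos. Among 1417 genes with a mean of at least 10 CPM, the 5 with the highest Pearson r to ARRDC3 over the 6 embryos were LOC110259371, ATCAY, KLHL26, DTX4 and ELAVL3, with r from 0.982 to 0.991. ATCAY (caytaxin) and ELAVL3 (an RNA-binding protein of the Hu family) are known for expression in neurons, and DTX4 is a Deltex ubiquitin ligase of the Notch pathway. Their log2 fold changes, from 0.39 to 0.57, were smaller than that of ARRDC3. ATCAY had a mean of 220 CPM in CN and 327 CPM in PA, and DTX4 had 715 and 936 CPM. After the group means were taken away, the r with ARRDC3 was 0.90 for ATCAY and 0.87 for DTX4. Genes known from the nervous system went both ways on chromosome 2. Of some picked after their values were seen, and for which no list was fixed, PAX6 (0.84), SYT13 (0.70) and NCAN (0.56) had positive log2 fold changes and CEND1 (-0.93) and CAMK2A (-0.18) negative ones. Their part in the level of ARRDC3 was not tested. The correlations share the group difference and the scaling of 6 libraries and are given as a description.

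EGR1 (chromosome 2, 140440829 to 140445302, plus strand) varied more between embryos of a group than between groups. Its normalized CPM was 227, 422 and 730 in CN1, CN2 and CN3 and 435, 537 and 311 in PA1, PA2 and PA3. The 3 PA values all lay between the lowest and the highest CN value, and CN3 had 3.22 times the level of CN1. The log2 fold change was -0.11 (standard error 0.37). The SD of EGR1 within groups was 0.66 on the log2 scale, above that of 99.6% of the 526 genes within 2-fold of its mean CPM, whose median was 0.13.

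JUNB (66214086 to 66219435, minus strand) was at 76.4, 83.1 and 105 CPM in CN and at 111, 127 and 75.2 CPM in PA. PA3 was the lowest of the 6 embryos and PA2 the highest, so the groups overlapped (log2 fold change 0.25, standard error 0.21). JUND (59530991 to 59532846, plus strand), whose protein is the AP-1 subunit known for steady expression, varied less between embryos than EGR1 and JUNB. It had 1280, 1304 and 1389 CPM in CN and 1319, 1482 and 1205 CPM in PA, with a log2 fold change of 0.01 (standard error 0.09). Per length JUND was the highest of the 5, at 1323 ± 143 TPM in CN and 1268 ± 131 TPM in PA (SD, n = 3), while JUNB was the lowest, at 28.5 ± 6.03 and 31.9 ± 7.02 TPM.

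IER2 (65909638 to 65912491, minus strand), a nuclear protein induced early by serum, was at 376, 343 and 430 CPM in CN and at 367, 313 and 315 CPM in PA. PA1 lay above CN2, so the groups overlapped, with a log2 fold change of -0.21 (standard error 0.11). In TPM every PA embryo, at 186 to 204, was below every CN embryo, at 213 to 274, so for IER2 the separation of the groups depended on the scale. No direction is given for it.

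EGR1, JUNB and JUND were high and low in the same embryos once each group's mean was taken away. CN3 was the highest of the CN embryos and PA2 the highest of the PA embryos for all 3 genes, and CN1 and PA3 were the lowest. The Pearson r of the log2 deviations over 6 embryos was 0.81 for EGR1 and JUNB, 0.71 for EGR1 and JUND and 0.94 for JUNB and JUND. In ARRDC3 the highest embryos were CN2 and PA2 and the lowest CN1 and PA1, and its r was 0.68 with EGR1, 0.37 with JUNB and 0.43 with JUND. IER2 did not share this order, with CN2 the lowest CN embryo and PA1 the highest PA embryo, and its r was 0.42 with EGR1, 0.43 with JUNB, 0.18 with JUND and -0.34 with ARRDC3. Deviations of 6 embryos from 2 group means leave few free values, and all genes of an embryo share its library and scaling.

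**Figure D3:**
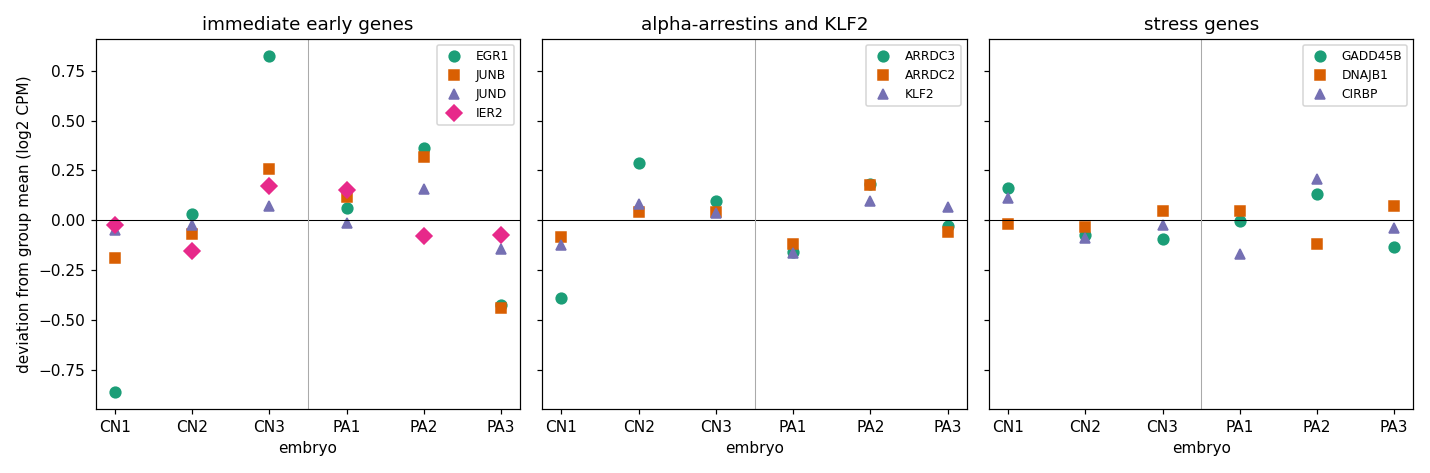
Deviation of each gene from the mean of its group in log2 normalized CPM (y axis) for each embryo (x axis), in 3 sets of genes. EGR1, JUNB and JUND were highest in CN3 and PA2 and lowest in CN1 and PA3, with EGR1 moving most, and DNAJB1 moved least of the 10 genes.

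KLF2 (61270733 to 61273037, minus strand), a transcription factor induced by fluid shear in endothelium and also counted among the immediate early genes, was lower in PA. It had 153, 177 and 171 CPM in CN and 92.8, 111 and 109 CPM in PA (PA1 to PA3). The groups did not overlap, and the spread within each group was small. The means were 167 ± 12.3 in CN and 104 ± 10.1 in PA (SD, n = 3), with a log2 fold change of -0.68 (standard error 0.12). In contrast to its group difference, its deviations within groups followed those of ARRDC3, with r = 0.84 over the 6 embryos. For ARRDC2 this r was 0.76. Such deviations leave few free values, and the r of KLF2 is a description.

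Markers of endothelial cells were set beside KLF2, and 1 of the 2 tested passed an adjusted p-value of 0.05, against 6.54% of all genes. Of the 15 endothelial genes listed, 2, PLVAP and LYL1, lie on chromosome 2, and the other 13 had at most 1 count in an embryo, as do most genes of other chromosomes in these tables. PLVAP, which forms the diaphragms of fenestrated endothelium, was at 1095, 1337 and 1223 TPM in CN and at 838, 973 and 905 TPM in PA, and passed in edgeR at -0.36 on the log2 scale (adjusted p = 0.0403, standard error 0.08). LYL1, a transcription factor of endothelial and blood cells, was at 62.1, 98.7 and 105 TPM in CN and at 50.5, 64.6 and 67.4 TPM in PA, and did not pass at -0.46 (adjusted p = 0.126, standard error 0.16). Both were lower in every PA embryo in normalized CPM, where 28.3% of all genes were without overlap in either direction. For LYL1 the margin was small, with 152 CPM in PA2 and 153 CPM in CN1. Their summed level, most of it PLVAP, was 1157 to 1436 TPM in CN against 888 to 1037 TPM in PA. ECSCR, an endothelial gene of chromosome 2 that was not on the list and was picked later, overlapped between the groups in normalized CPM (log2 fold change -0.21, adjusted p = 0.497). In whole embryos, fewer cells of a type and less RNA per cell cannot be told apart.

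The TPM of KLF2 relative to PLVAP was 0.159 ± 0.0103 in CN and 0.128 ± 0.0164 in PA (SD, n = 3), with the highest PA embryo, at 0.145, just below the lowest CN embryo, at 0.147. Relative to LYL1 it was 2.26 ± 0.331 in CN and 1.90 ± 0.0421 in PA, and the groups overlapped. The part of endothelial content in the level of KLF2 was not tested.

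Of the KLF family, KLF1, KLF2 and KLF16 could be tested. KLF1, a transcription factor of red cell precursors, was at 106, 130 and 226 TPM in CN and at 80.6, 96.6 and 85.0 TPM in PA. The groups did not overlap, but CN3 stood far above the other CN embryos, and the log2 fold change of -0.74 (standard error 0.25) did not pass (adjusted p = 0.127). With DESeq2, KLF1 had an adjusted p-value of 0.0348 at a log2 fold change of -0.75. The other erythroid markers on chromosome 2 were mixed, with PRDX2 at -0.13, EPOR at -0.06 and DNASE2 at 0.30, none of them past an adjusted p-value of 0.05. KLF16 was at -0.18 (adjusted p = 0.393).

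**Figure D4:**
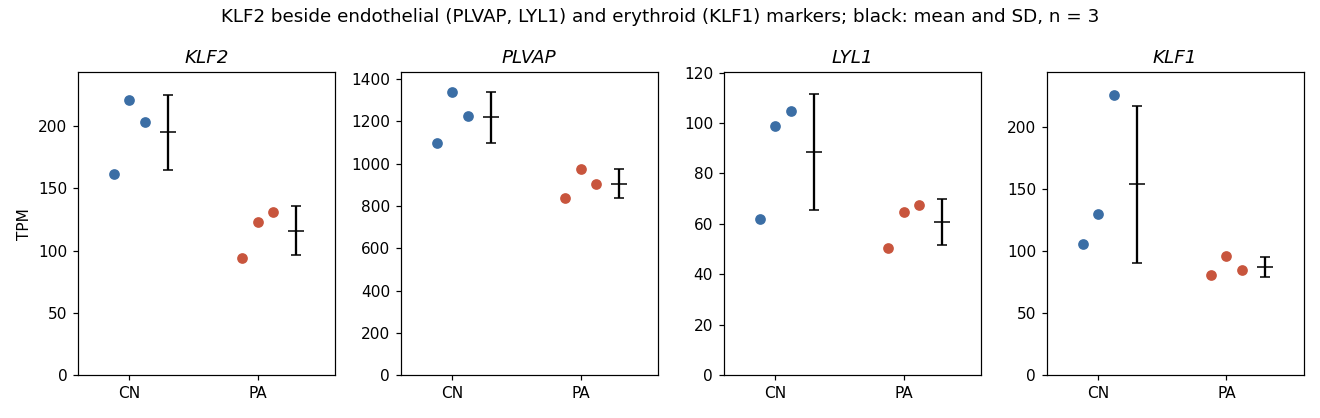
TPM of KLF2, of the endothelial markers PLVAP and LYL1 and of the erythroid factor KLF1 in the 3 CN (blue) and 3 PA (red) embryos, with y axes from 0 and the mean and SD in black. The levels of KLF2, PLVAP and KLF1 in PA lay below every CN embryo, while for LYL1 the CN1 value of 62.1 TPM fell among the PA values.

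DNAJB1 (64761672 to 64764482, plus strand) was lower in PA, opposite in sign to ARRDC3. Its normalized CPM was 718, 710 and 751 in CN and 514, 458 and 524 in PA. The values were tight within both groups and did not overlap, with 726 ± 22.0 in CN and 498 ± 35.4 in PA (SD, n = 3). The log2 fold change was -0.54 (standard error 0.08), or 0.686 times the CN level.

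The chaperones HSPA4 and HSPA9 of the HSP70 family and STIP1, the adaptor between HSP70 and HSP90, were tested beside DNAJB1. None of the 3 passed, and none had an unadjusted p-value below 0.05 in edgeR. The log2 fold changes were -0.02 (HSPA4), -0.16 (HSPA9) and -0.09 (STIP1), with standard errors of 0.08 to 0.13, and each overlapped between the groups in normalized CPM. In TPM HSPA9 did not overlap, at 1636, 1794 and 1647 in CN and 1595, 1252 and 1468 in PA, so its separation depended on the scale. These 4 chaperones are the tested genes of 31 on the list, so most heat shock genes were not followed.

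GADD45B (76107928 to 76111458, minus strand) was higher in PA, with 58.7, 49.8 and 49.1 CPM in CN and 79.6, 87.5 and 72.6 CPM in PA. The groups did not overlap, and the means were 52.5 ± 5.38 in CN and 79.9 ± 7.47 in PA (SD, n = 3). The log2 fold change was 0.60 (standard error 0.15), or 1.52-fold. GADD45B rests on 161 to 292 counts per embryo, where ARRDC3 has 2303 to 9311.

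Within groups GADD45B did not follow ARRDC3 (r = -0.43 over 6 embryos). The other tested genes of DNA damage and growth arrest were DDB1 and DDB2, which recognize ultraviolet damage, GADD45GIP1, a partner of the GADD45 proteins, POLK, a translesion polymerase, and TP53I11, a p53-induced gene. None of the 5 passed, and 1, POLK, had an unadjusted p-value below 0.05 in edgeR, against 21.2% of all genes. POLK was at 27.7, 30.5 and 27.4 TPM in CN and 19.4, 22.4 and 24.4 TPM in PA (log2 fold change -0.31, adjusted p = 0.130). DDB1 (0.14), TP53I11 (0.11) and DDB2 (0.01) had small log2 fold changes, and the groups overlapped in TPM for each, though for DDB1 and TP53I11 not in normalized CPM.

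CIRBP (77185295 to 77194373, minus strand) had the highest TPM of the 10 genes in both groups. It had 2401, 2089 and 2182 CPM in CN and 2213, 2873 and 2421 CPM in PA. PA2 stood highest, and the groups overlapped, with a log2 fold change of 0.17 (standard error 0.11). In TPM it was 1907 ± 28.9 in CN and 2060 ± 358 in PA (SD, n = 3). Of its 19 annotated transcripts the largest share of TPM went to variant X11 (XM_021079389.1), and 1731 exon bases are shared with C2H19orf24 on the same strand. C2H19orf24 had 46.1 to 98.4 estimated counts, and the division of reads between them is uncertain.

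The question whether ARRDC3 went with a general stress or handling response was put to the genes of 10 pathway lists that were not among the 10 members. Of 245 genes on the lists, 57 lie on chromosome 2. Tested were 56, among them HIF3A of chromosome 6, and 46 of these were non-members. By edgeR 0 of the 46 met both criteria, and 0 had an adjusted p-value below 0.05, while 7 had an unadjusted p-value below 0.05, 2 higher and 5 lower in PA. Of all genes, 2.91% met both criteria, 6.54% had an adjusted and 21.2% an unadjusted p-value below 0.05. DESeq2 also called 0 by both criteria. The median log2 fold change of the 46 was -0.03, and that of all 1652 genes was 0.02. Without overlap between groups in normalized CPM were 9 of the 46, with 5 higher and 4 lower, against 28.3% of all genes.

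Among immediate early genes, the 3 tested non-members MIDN, SPRY4 and DUSP8 had log2 fold changes of 0.03, 0.10 and 0.22. MIDN, midnolin, which targets immediate early proteins for degradation, was at 797 TPM in CN and 777 TPM in PA. SPRY4 and DUSP8 encode feedback inhibitors of MAP kinase signalling. DUSP8 was higher in every PA embryo in normalized CPM, yet did not pass (adjusted p = 0.275).

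Of 11 genes of MAP kinase and NF-kB signalling tested, 1 had an unadjusted p-value below 0.05 with a higher level in PA and 2 with a lower one. These were ICAM1, an adhesion molecule induced by NF-kB, at 0.42 (adjusted p = 0.136), and the kinases MAP3K11 at -0.25 (adjusted p = 0.121) and MAP4K2 at -0.65 (adjusted p = 0.140). Over all 1652 genes, 21.2% had an unadjusted p-value below 0.05 in edgeR, in either direction. The most abundant of the list, MAP2K2, MKNK2, MAPK9 and RELA, had log2 fold changes from -0.13 to 0.06.

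The 4 tested genes of the unfolded protein response had a median of -0.14. CALR, the chaperone calreticulin, was at 8924, 8397 and 8411 TPM in CN and 7220, 6060 and 6912 TPM in PA. Although these TPM values did not overlap, normalized CPM did, and CALR did not pass (log2 fold change -0.28, adjusted p = 0.267). CANX (-0.06), CREB3L1 (0.14) and CALR3 (-0.23) did not pass either, with overlap on both scales. The 8 oxidative stress genes had a median of -0.12 with 1 of 8 above 0, from PRDX5 at -0.24 to SQSTM1 at 0.12, and the ferritin heavy chain FTH1, the most abundant gene of the lists, was at -0.02 (adjusted p = 0.919).

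The 6 hypoxia genes had a median log2 fold change of 0.21, and 4 of 6 were above 0. ADM, adrenomedullin, had the largest value at 0.84 (standard error 0.39, adjusted p = 0.267), which came from PA2 at 163 TPM, while the other PA embryos had 61.6 and 57.4 TPM and the CN embryos 54.5 to 55.6 TPM. VEGFB was lower in every PA embryo (-0.25, adjusted p = 0.130). LDHA had a log2 fold change of 0.27, ANGPTL4 of 0.34 and P4HA2 of -0.07, and none of them passed or was without overlap in normalized CPM. LDHA was likewise high in PA2 alone, at 4385 TPM beside 2536 and 2541 TPM in PA1 and PA3 and 2612 to 2906 TPM in CN. ANGPTL4 was highest in PA1, at 245 TPM, with 112 and 158 TPM in PA2 and PA3 and 96.2 to 187 TPM in CN. The positive median of the list thus rests in part on single embryos.

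**Figure D5:**
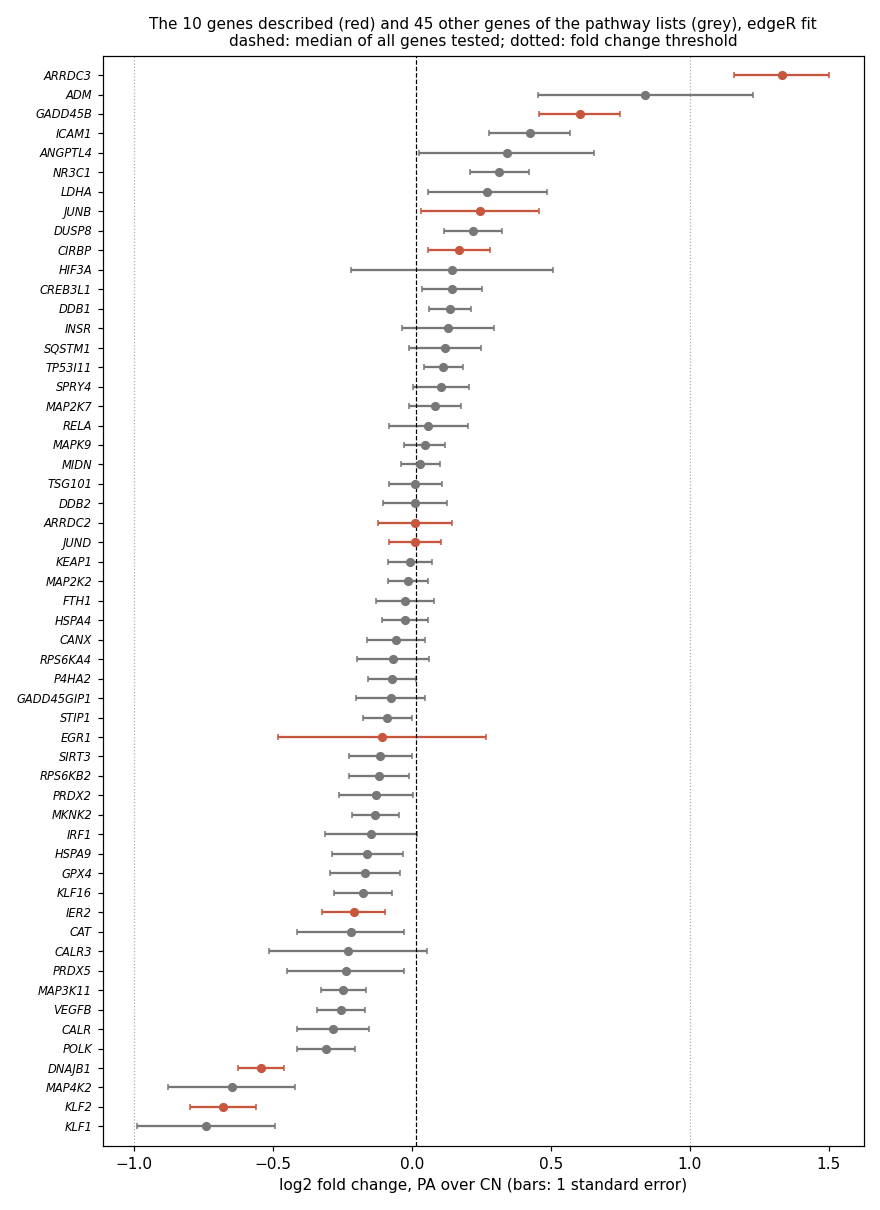
Log2 fold change, PA over CN, with 1 standard error, of the 10 genes described (red) and 45 of the 46 other tested genes of the pathway lists (grey). The dashed line is the median of all genes, 0.02, and the dotted lines are the fold change criterion. ARRDC3 is the only gene past a dotted line, and KLF1, KLF2, MAP4K2 and DNAJB1 are the lowest.

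GDF15, a secreted cytokine of the mitochondrial and integrated stress responses, is on chromosome 2 but was not on a list and was picked out after its values were seen. It had 19, 37 and 32 counts in CN1, CN2 and CN3 and 93, 103 and 36 counts in PA1, PA2 and PA3. PA1 and PA2 were high, and PA3, at 10.1 CPM, lay within the CN range of 5.99 to 11.4 CPM. Its log2 fold change of 1.36 (standard error 0.44) was as large as that of ARRDC3 but did not pass (adjusted p = 0.114). CN1 was the lowest and CN2 the highest CN embryo for both GDF15 and ARRDC3, and PA2 was the highest PA embryo for both, while the lowest was PA3 for GDF15 and PA1 for ARRDC3.

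White blood cell and trophoblast markers were also followed. The 4 white blood cell genes on chromosome 2, CD14, CSF1R, MS4A7 and SPI1, had a summed level of 285 to 429 TPM in CN and 244 to 328 TPM in PA, and none of the 4 passed. Outside that list, and picked after their values were seen, the neutrophil granule genes AZU1 and ELANE of chromosome 2 were lower in PA and met both criteria in edgeR. AZU1 fell from 116 to 42.4 CPM (log2 fold change -1.45, adjusted p = 0.0433), and ELANE from 40.8 to 13.1 CPM (-1.64, adjusted p = 0.0382). Of the trophoblast genes ELF5 was tested, at 0.45 (adjusted p = 0.563), and the summed level of ELF5 and PAG6 was 4.89 to 12.9 TPM in CN and 8.11 to 14.7 TPM in PA. The summed level of the 4 erythroid genes was 7712 to 9148 TPM in CN and 7217 to 7503 TPM in PA. Most of it was PRDX2, with means of 7894 TPM in CN and 6939 TPM in PA. PRDX2 is also on the oxidative stress list, and its groups overlapped in normalized CPM. The part of these markers in the levels of the 10 genes was not tested.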

How the data were processed

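RNA of 3 PA and 3 CN embryos was analysed. Per the labels and the study's methods, TruSeq v2 libraries, a kit that does not keep strand, were made from whole-embryo RNA, and the submitters' processing notes name Salmon 1.3.0. The authors deposited estimated counts (not whole, not normalized), TPM and effective lengths for 81496 transcripts per embryo. All transcripts are listed, but nearly all counts lie on chromosome 2. Transcripts were joined to genes by the Sscrofa11.1 annotation (NCBI release 106), with 39 transcripts left as their own unit. Rounded gene sums entered edgeR 4.0.16 (R 4.3.3): TMM factors, average transcript length offset, filterByExpr (minimum count 10, minimum total 15), robust quasi-likelihood test, two-sided, Benjamini-Hochberg adjustment over 1652 genes, 111 of them outside chromosome 2. Standard errors are the log2 fold change over the square root of F. DESeq2 1.42.0 was an alternative. Log2 CPM carried a pseudocount of 0.5. With these totals, 3 counts equal 0.84 to 0.968 CPM, which covers counting error only. Promoter windows were read from the genome with Python 3.11.15. No 2 embryos of a group were close enough to be 1 library (5.81 to 95.5 for chi-square divided by its degrees of freedom).

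The members and lists were chosen with earlier results of these data known. Named genes are the 10 members, all list genes with an adjusted p-value below 0.05, up to 4 genes per list with the highest CPM, and the 5 genes most like ARRDC3. The values of 1 list gene are not reported here. Others, such as GDF15, ADM, ICAM1, MAP3K11, MAP4K2, POLK, VEGFB, DUSP8, AZU1, ELANE, ECSCR, PAX6, SYT13, NCAN, CEND1, CAMK2A, UNC13A, NRXN2 and CPLX2, were picked after their values were seen.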

Additional observations from a re-analysis of the deposited data

How the results depend on the processing

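The alternatives were DESeq2, library totals, DESeq2 size factors, no length offset, no filter, at least 10 counts in every embryo, scaling on chromosome 2 genes, the replicate block and leaving out each embryo. The members were chosen with this contrast known, so their values are a description and no support. Over the 14 alternatives the log2 fold change was 1.17 to 1.49 for ARRDC3, -0.60 to -0.49 for DNAJB1, -0.73 to -0.59 for KLF2 and 0.53 to 0.70 for GADD45B. Of the members with an adjusted p-value below 0.05, KLF2 lost it without CN2 or CN3, and GADD45B with library totals, the replicate block or without CN2, CN3, PA1, PA2 or PA3. ARRDC2, EGR1 and JUND changed sign in 3 alternatives each, so they have no direction. The number of genes called was 48, and 77 without the expression filter, where more genes are tested; it was 34 to 52 with 1 embryo left out. In each alternative, 0 of the list genes outside the members (46, or 56 without the filter) met both criteria. With an adjusted p-value below 0.05 there were 2 without the filter (KLF1 and MAP4K2) and 1 with DESeq2 (KLF1), and 0 with 1 embryo left out, and the cause was not tested. Same-numbered embryos are different embryos and were not paired in the main fit. Their deviations correlated at 0.254, 0.122 and 0.0425, and 3 of 6 embryos correlated best with their own number. So small a check cannot show whether a number stands for a shared batch. The replicate block gave 43 calls.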
